A study of Mus musculus with 8 samples.

Results

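The genes described here are 8 genes of astrocyte intermediate filaments and of reactive astrocytes (Vim, Gfap, Nes, Synm, Serpina3n, Lcn2, Steap4 and Osmr), out of 25834 genes in a table of RNA-seq counts. They were chosen by measured values: Vim was picked because its counts are lower in SAP97-cKO hippocampus than in control hippocampus, and the other 7 were set beside it as comparators. Hippocampal RNA of 8 male mice was sequenced, 4 of them controls and 4 SAP97-cKO, with 1 library per mouse. SAP97-cKO mice were Nestin-cre+/- and SAP97fl/fl, so that Dlg1, the gene for SAP97, is deleted in cells descended from those in which the Nestin promoter drives the Cre recombinase. This promoter is active in the neural progenitors that give rise to neurons and astrocytes, and Nes, the mouse gene for nestin, is itself 1 of the 8. Controls were littermates that were wild-type, SAP97fl/fl or Nes-cre+/-, and the sources used here do not give the genotype of each control library or the age of the mice at RNA collection. The deposited counts had been resampled by the authors to a common depth. A control library held 37388177 to 37416649 counts and a SAP97-cKO library 37391907 to 37426572. These totals therefore do not show how deeply each library was sequenced.

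Vimentin (Vim), glial fibrillary acidic protein (Gfap), nestin (Nes) and synemin (Synm) are intermediate filament proteins that can be built into the same filaments of an astrocyte. In the adult brain GFAP marks most hippocampal astrocytes, nestin and vimentin mark radial glia and neural stem cells, and vimentin is also made by endothelial, mural, meningeal and ependymal cells. Astrocytes that react to injury or inflammation raise filament genes together with other genes, among them Serpina3n, which encodes a secreted serine protease inhibitor, Lcn2, which encodes the siderophore-binding protein lipocalin 2, Steap4, which encodes a metalloreductase, and Osmr, which encodes a receptor subunit for oncostatin M.

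Dlg1 was looked at first, as a check of the labels. It had 4128, 4549.9, 3983 and 4691 TMM-normalized counts in controls 1 to 4 and 2353, 3065, 2144 and 2009 in SAP97-cKO 1 to 4. Every library labelled SAP97-cKO was below every control library, at 55.2% of the control mean, and the gene-level count includes exons that the deletion leaves in place. Astrocyte transcripts were measured with 16 homeostatic astrocyte genes, all of which were tested, and none was at 0 in all libraries. Their presence in whole hippocampus does not show in which cells the 8 members are transcribed. Slc1a2, which encodes a glutamate transporter, and Glul, which encodes glutamine synthetase, had the most counts among them. The summed normalized counts of these 16 genes were 304628, 313217, 318386 and 358999 in controls 1 to 4 and 372177, 304025, 316567 and 317156 in SAP97-cKO 1 to 4. The groups overlapped, and the median log2 fold change of the 16 genes was 0.02, beside -0.01 over the 16251 genes tested.

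Levels were compared between genes as CPM (counts scaled to equal library size) per kilobase of exon. In control hippocampus Gfap was the highest at 119 ± 16.6 (SD, n = 4), followed by Serpina3n at 28.1 ± 3.72, Vim at 13.2 ± 1.48 and Synm at 7.78 ± 1.22. Nes followed at 1.90 ± 0.21, Osmr at 0.438 ± 0.071, Steap4 at 0.302 ± 0.25 and Lcn2 at 0.053 ± 0.038. The control libraries of neighbours in this order did not overlap, except those of Osmr and Steap4 and those of Steap4 and Lcn2. In SAP97-cKO hippocampus the order of the means was the same, but there Vim, at 8.16 ± 0.99, and Synm, at 8.09 ± 0.36, no longer stood apart.

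Vim (ENSMUSG00000026728; chromosome 2 of GRCm38, plus strand, 13573927 to 13582826) had 1951, 2410.5, 2480.5 and 2512 normalized counts in controls 1 to 4 and 1639, 1323, 1553 and 1275 in SAP97-cKO 1 to 4. All 4 SAP97-cKO libraries lay below the lowest control library, and control 1 was the lowest of its group. The means were 2338 ± 262 (SD, n = 4) and 1448 ± 176 (SD, n = 4), so that SAP97-cKO held 61.9% of the control level. The log2 fold change was -0.69 with a standard error of 0.11, and it is given without a p because this contrast chose the gene. Vim was the only 1 of the 7 members tested that was past the threshold of an FDR under 0.25, as 0.295% of all genes tested were, 46 of them lower and 2 higher in SAP97-cKO. It was also the only member whose groups did not overlap, as the groups of 6.25% of all genes tested did not. Nothing is read from these counts, since Vim was picked on them. With control 2, SAP97-cKO 3 or SAP97-cKO 4 left out, 0 members and 0 genes were past the threshold in edgeR, where 1403, 1259 and 1167 genes had an unadjusted p under 0.05, while Vim was at -0.68, -0.72 and -0.63 on the log2 scale. With control 1 or SAP97-cKO 1 left out, 1675 and 711 genes were past it.

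**Figure D1:**
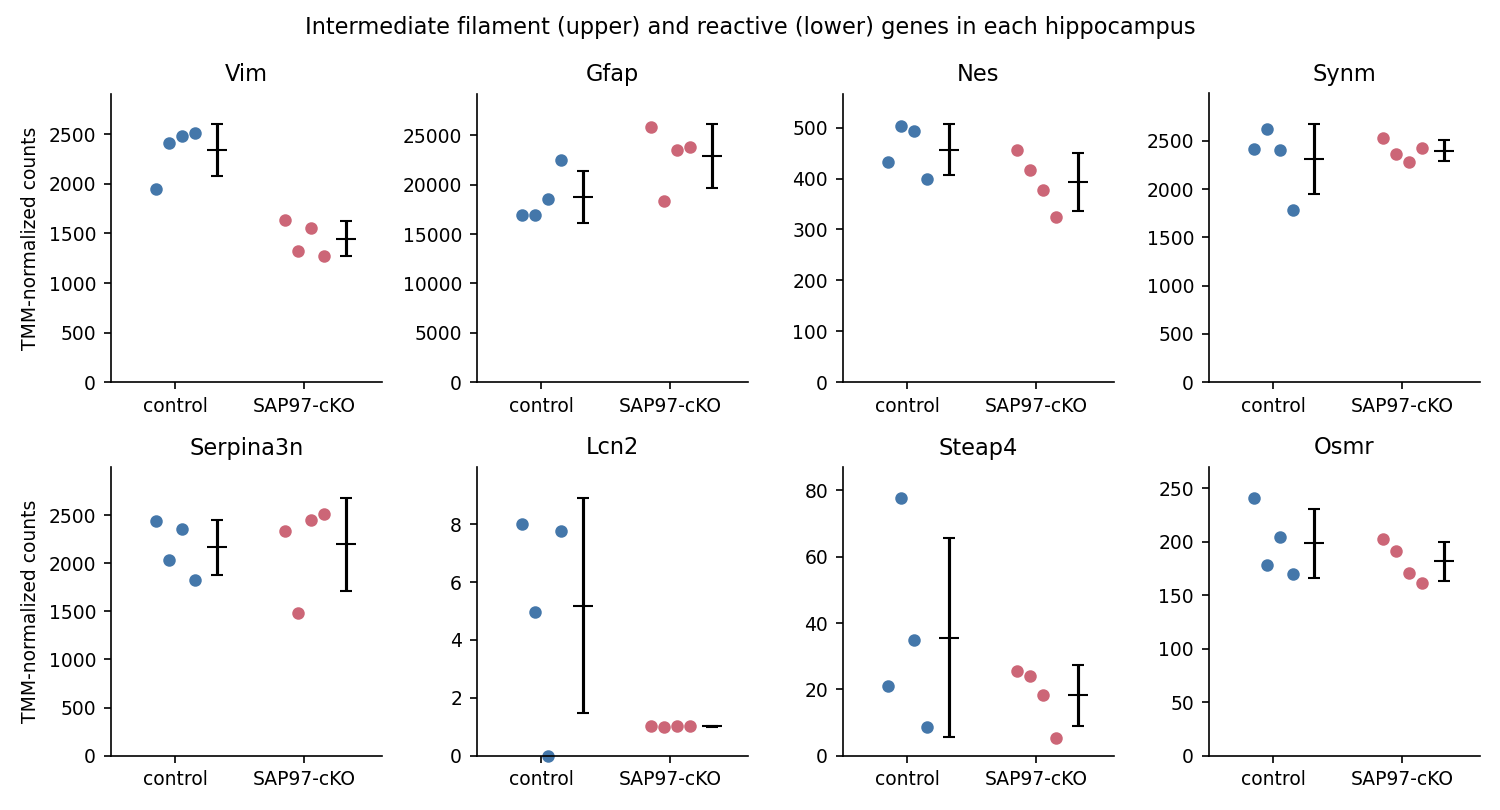
TMM-normalized counts of the 8 genes in each library, with the filament genes in the upper row and the reactive genes in the lower row; each point is 1 mouse, in order of replicate number, and the black bar is the mean ± SD of 4 mice. Vim lies at 1951 to 2512 in controls and at 1275 to 1639 in SAP97-cKO, while the groups of the other 7 genes overlap.

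The Vim counts that chose the gene were also set against astrocyte transcripts of the same library, as a description. Per 100 Gfap counts of the same library there were 11.5, 14.2, 13.4 and 11.2 Vim counts in controls 1 to 4 and 6.34, 7.22, 6.60 and 5.35 in SAP97-cKO 1 to 4. The groups did not overlap, and the log2 difference of the ratio was -0.98, larger in size than that of Vim alone because Gfap was at higher counts in SAP97-cKO. Per 1000 counts of the 16 homeostatic astrocyte genes, Vim had 7.22 ± 0.65 (SD, n = 4) in controls against 4.42 ± 0.37 (SD, n = 4) in SAP97-cKO, a log2 difference of -0.71. These ratios depend on no scaling between libraries. In whole hippocampus, fewer cells of a type and less RNA per cell cannot be told apart.

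Markers of other cell types in which Vim is transcribed were looked at next. Of 18 meningeal fibroblast genes, all 18 were tested and had fold changes below 0, with a median of -1.08 on the log2 scale. In edgeR 7 were past the threshold, beside 0.295% of all genes tested, and 14 had an unadjusted p under 0.05, beside 11.7%. This list, like the others, was drawn up with earlier results of these data known. The study's own list of changed genes holds Ogn, Col1a2, Col3a1, Aldh1a2, Slc22a6, Mgp, Slc6a13 and Omd. No enrichment is read from these counts. The summed normalized counts of the 18 genes were 15084, 26450, 15780 and 14046 in controls 1 to 4 and 8972, 14013, 11766 and 7938 in SAP97-cKO 1 to 4. The groups did not overlap, although control 4 and SAP97-cKO 2 were nearly equal, and the most abundant of the 18 genes were Igf2, an insulin-like growth factor, and Dcn, a small proteoglycan. The genes past the threshold with the smallest p were Ogn, another small proteoglycan, Col1a2 and Col3a1, which encode fibrillar collagen chains, the vitamin A oxidising Aldh1a2, the transporter Slc22a6 and Mgp. Per 1000 counts of the 18 genes, Vim was at 129, 91.1, 157 and 179 in controls 1 to 4 and at 183, 94.4, 132 and 161 in SAP97-cKO 1 to 4. In this ratio the groups overlapped throughout. When the mean level of the 18 genes entered the model as a covariate, Vim was at -0.71 on the log2 scale with a wider standard error of 0.22, and edgeR called 0 members and 0 genes, with 732 genes at an unadjusted p under 0.05.

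The sums of the endothelial, mural and ependymal lists had groups that overlapped. Of 14 endothelial genes, led by Flt1 and Itm2a, 13 were below 0 with a median log2 fold change of -0.22 and 0 were past the threshold in edgeR, with 2, Ly6a and Itm2a, at an unadjusted p under 0.05, as 11.7% of all genes tested were. Their sums were 14558, 14497, 14513 and 13937 in controls 1 to 4 and 15835, 12166, 12300 and 10014 in SAP97-cKO 1 to 4, so that SAP97-cKO 1 was above and the others below all controls. Per 1000 endothelial counts Vim was at 163 ± 20.1 (SD, n = 4) in controls against 116 ± 12.1 (SD, n = 4) in SAP97-cKO, without overlap. All 9 mural genes, led by Rgs5 and Vtn, were below 0 with a median of -0.22 and 0 past the threshold in edgeR (3 at an unadjusted p under 0.05: Vtn, Acta2 and Tagln), and their sums were 9425, 8642, 8742 and 8559.6 in controls and 8623, 7108, 7687 and 5284 in SAP97-cKO. All 8 ependymal genes, led by Foxj1 and Rarres2, were below 0 with a median of -0.62 and 0 past the threshold in edgeR (4 at an unadjusted p under 0.05: Tmem212, Rarres2, Dynlrb2 and Rsph1), and their sums were 1019, 2063, 2488 and 1571 in controls and 1177, 1429, 1103 and 976 in SAP97-cKO. The share over all genes tested, 11.7%, is the background for the mural and ependymal counts at an unadjusted p under 0.05 too. No gene of these lists was at 0 in all libraries. Per 1000 mural or ependymal counts the Vim values of the groups overlapped. The part of mural cells in the lower Vim count was not tested beyond this ratio. That of the other cell types was not tested beyond the covariate fits, where the log2 fold change of Vim was -0.57 with the endothelial and -0.56 with the ependymal markers, and where edgeR again called 0 members and 0 genes, with 987 and 741 genes at an unadjusted p under 0.05.

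**Figure D2:**
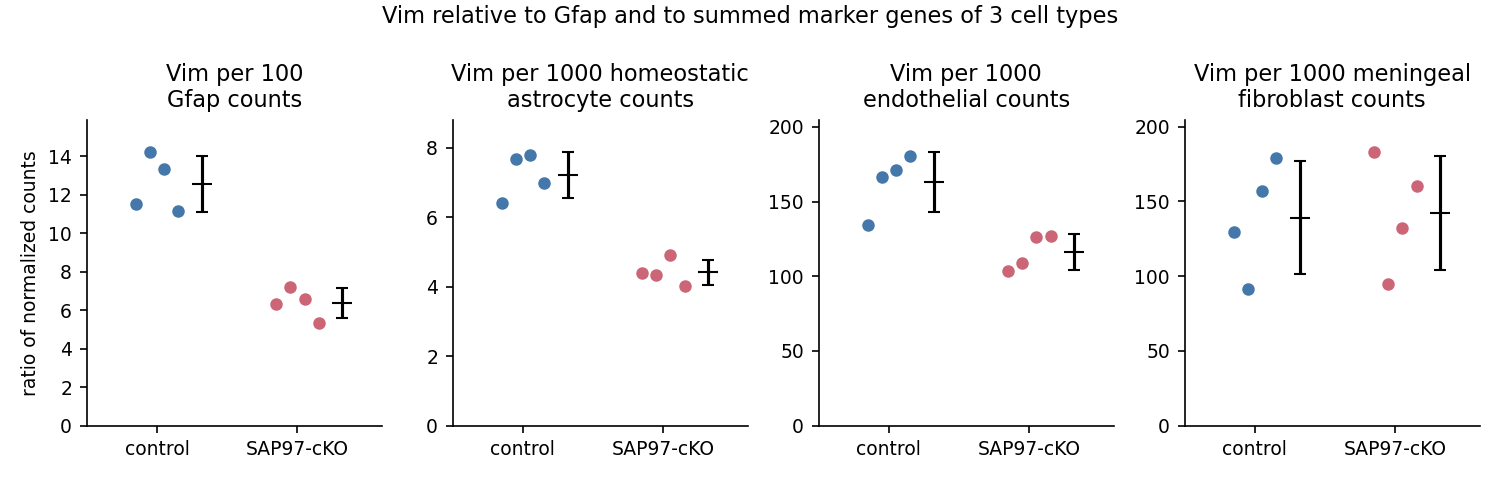
Vim counts in each library relative to Gfap and to the summed marker genes of 3 cell types; each point is 1 mouse, in order of replicate number, and the black bar is the mean ± SD of 4 mice. The groups do not overlap relative to Gfap, homeostatic astrocyte or endothelial counts, and they overlap relative to meningeal fibroblast counts (139 ± 37.9 in controls, 142 ± 38.2 in SAP97-cKO).

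Gfap (ENSMUSG00000020932; chromosome 11, minus strand, 102887336 to 102900912), the principal filament gene of astrocytes, did not follow Vim. It had 16917.5, 16982, 18577 and 22499 normalized counts in controls 1 to 4 and 25877, 18332, 23532.5 and 23824 in SAP97-cKO 1 to 4. In 3 of 4 SAP97-cKO libraries Gfap was above every control, and SAP97-cKO 2 lay among the controls. The means were 18744 ± 2619 (SD, n = 4) and 22892 ± 3214 (SD, n = 4), and the log2 fold change of 0.29 (standard error 0.12) did not pass the threshold, with an adjusted p of 0.412 (quasi-likelihood test of edgeR, Benjamini-Hochberg adjustment over all genes tested). Per 1000 homeostatic astrocyte counts Gfap was at 57.7 ± 3.74 (SD, n = 4) in controls against 69.8 ± 6.81 (SD, n = 4) in SAP97-cKO, with SAP97-cKO 2 at 60.3 and control 4 at 62.7, so that the groups overlapped. When the mean level of the 16 homeostatic astrocyte genes entered the model, Gfap was at 0.31 on the log2 scale (standard error 0.070) and passed the threshold in edgeR (adjusted p = 0.234). That fit called 288 genes in all, against 48 without the covariate. With the meningeal fibroblast covariate Gfap was at -0.088 (standard error 0.22, adjusted p = 0.998 in edgeR), and over all alternatives its adjusted p ran from 0.234 to 0.998.

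Nes (ENSMUSG00000004891; chromosome 3, plus strand, 87971078 to 87980451) had 432, 502, 493 and 399 normalized counts in controls 1 to 4 and 455, 417, 377 and 324 in SAP97-cKO 1 to 4. The groups overlapped, with SAP97-cKO 3 and 4 below all controls. The log2 fold change, -0.22 with a standard error of 0.13, had an adjusted p of 0.506 in edgeR. The 12 neural stem cell and radial glia genes, among which Hopx and Id4 had the most counts, gave no shift in 1 direction. Of the 11 tested, 6 were below 0 and 5 above, and the median log2 fold change was -0.0037. In edgeR 0 were past the threshold and 1, Lpar1, had an unadjusted p under 0.05, beside 11.7% of all genes tested. Relative to the summed counts of these 12 genes, Vim was at 196 ± 15.7 (SD, n = 4) per 1000 in controls against 121 ± 11.8 (SD, n = 4) in SAP97-cKO, without overlap.

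Synm (ENSMUSG00000030554; chromosome 7, minus strand, 67730160 to 67759742), whose protein links filaments of vimentin or GFAP to other structures, had 2418, 2619.7, 2409.6 and 1786 normalized counts in controls 1 to 4 and 2529, 2364, 2277 and 2423 in SAP97-cKO 1 to 4. Control 4 was the lowest library and the other libraries of both groups lay close together. The log2 fold change, 0.06 with a standard error of 0.11, had an adjusted p of 0.851 in edgeR, and without control replicate 4 it was -0.049. Exons of Synm overlap exons of Ttc23 by 84 bases and of Gm45102 by 426 bases on the opposite strand, and reads there cannot be told apart because the sources used here do not give the use of strand in counting. Gm45102 held 65 reads and Ttc23 1049 reads over the 8 libraries.

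Among the reactive genes, Serpina3n (ENSMUSG00000021091; chromosome 12, plus strand, 104406729 to 104414329) had the highest level. It had 2440.2, 2038, 2360.1 and 1823 normalized counts in controls 1 to 4 and 2337, 1477, 2448 and 2515 in SAP97-cKO 1 to 4. SAP97-cKO 2 was the lowest of all libraries and the rest of the groups overlapped. The log2 fold change, 0.02 with a standard error of 0.16, had an adjusted p of 0.971 in edgeR, with a sign that changed between settings. Serpina3n belongs to a family of similar genes next to each other, so its reads could have been split with paralogs in counting. Of 12 genes of the families of the members (Serpina3 paralogs, STEAP reductases and lipocalin 2 receptors), 10 were found in the table and 7 were tested, with 0 past the threshold or at an unadjusted p under 0.05 in edgeR and a median log2 fold change of -0.16. Slc22a17, a lipocalin 2 receptor gene, and Steap2 had the most counts among them.

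Osmr (ENSMUSG00000022146; chromosome 15, minus strand, 6813577 to 6874969) had 241, 178, 205 and 169.9 normalized counts in controls 1 to 4 and 203, 191, 171 and 162 in SAP97-cKO 1 to 4. The groups overlapped and the log2 fold change, -0.13 with a standard error of 0.14, had an adjusted p of 0.716 in edgeR. The oncostatin M receptor signals through gp130, JAK kinases and STAT3. Of 19 other genes of this pathway, from ligands to inhibitors, 15 were tested, 6 of them below 0 and 9 above, with a median log2 fold change of 0.04. Jak1, which encodes a kinase of the pathway, and Il6st, which encodes gp130, had the most counts, with log2 fold changes of 0.11 (standard error 0.077) and 0.04 (standard error 0.079). In edgeR 0 of the 15 passed the threshold and 2, Ctf1 and Stat3, had an unadjusted p under 0.05, both lower, beside 11.7% of all genes tested. Stat3, singled out after its values had been seen, was at 2214 ± 122 (SD, n = 4) in controls against 1885 ± 153 (SD, n = 4) in SAP97-cKO, where control 4 and SAP97-cKO 1 were nearly equal (2035.3 and 2034.5), and did not pass (log2 fold change -0.23, standard error 0.075, adjusted p = 0.347 in edgeR).

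Steap4 (ENSMUSG00000012428; chromosome 5, plus strand, 7960457 to 7982213) was low and varied most among the tested members. It had 21.01, 77.7, 34.96 and 8.74 normalized counts in controls 1 to 4 and 25.5, 23.9, 18.2 and 5.19 in SAP97-cKO 1 to 4. Control 2 stood highest and control 4 and SAP97-cKO 4 lowest. The log2 fold change, -0.96 with a standard error of 0.62, had an adjusted p of 0.542 in edgeR, and it was -0.24 without control replicate 2. The 10 choroid plexus epithelium genes, led by Ttr, the transthyretin gene, and Kl, ordered the controls as Steap4 did, but not the SAP97-cKO libraries, of which SAP97-cKO 2 was highest in their sum and SAP97-cKO 1 in Steap4. Their summed counts were 44827, 254449, 142003 and 6483 in controls 1 to 4 and 21226, 87616, 50579.5 and 3621 in SAP97-cKO 1 to 4, with Ttr at 90.4% of the sum. All 10 were below 0 with a median log2 fold change of -1.48, 0 passed the threshold in edgeR and 0 had an unadjusted p under 0.05, and no gene of the list was at 0 in all libraries. Within groups, the deviations of Steap4 and of this sum had a Pearson correlation of 0.92 over 8 libraries. Within a library, both values share its dissection and depth. When the mean level of the 10 genes entered the model, Steap4 was at 0.04 on the log2 scale (standard error 0.38), and with the meningeal fibroblast covariate it was at 0.90 (standard error 1.03).

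Lcn2 (ENSMUSG00000026822; chromosome 2, minus strand, 32384633 to 32388252) was close to the limit of detection and was the 1 member that did not pass the filter on low counts. It had 8, 5, 0 and 8 reads in controls 1 to 4 and 1, 1, 1 and 1 reads in SAP97-cKO 1 to 4. Control 3 had no read while the other controls were above every SAP97-cKO library. The 21 reads in controls and 4 in SAP97-cKO gave a SAP97-cKO over control ratio of 0.197. Its exact 95% interval, 0.049 to 0.583, covers counting error and not the spread between mice. Lcn2 is also abundant in neutrophils. Of 8 neutrophil genes, 7 were found in the table and 0 had enough reads to be tested, and their summed normalized counts were 25.0, 23.9, 24.3 and 47.6 in controls 1 to 4 and 15.3, 15.9, 18.2 and 16.6 in SAP97-cKO 1 to 4, led by S100a9 and S100a8. The groups did not overlap in this sum, and its part in the Lcn2 reads was not tested.

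**Figure D3:**
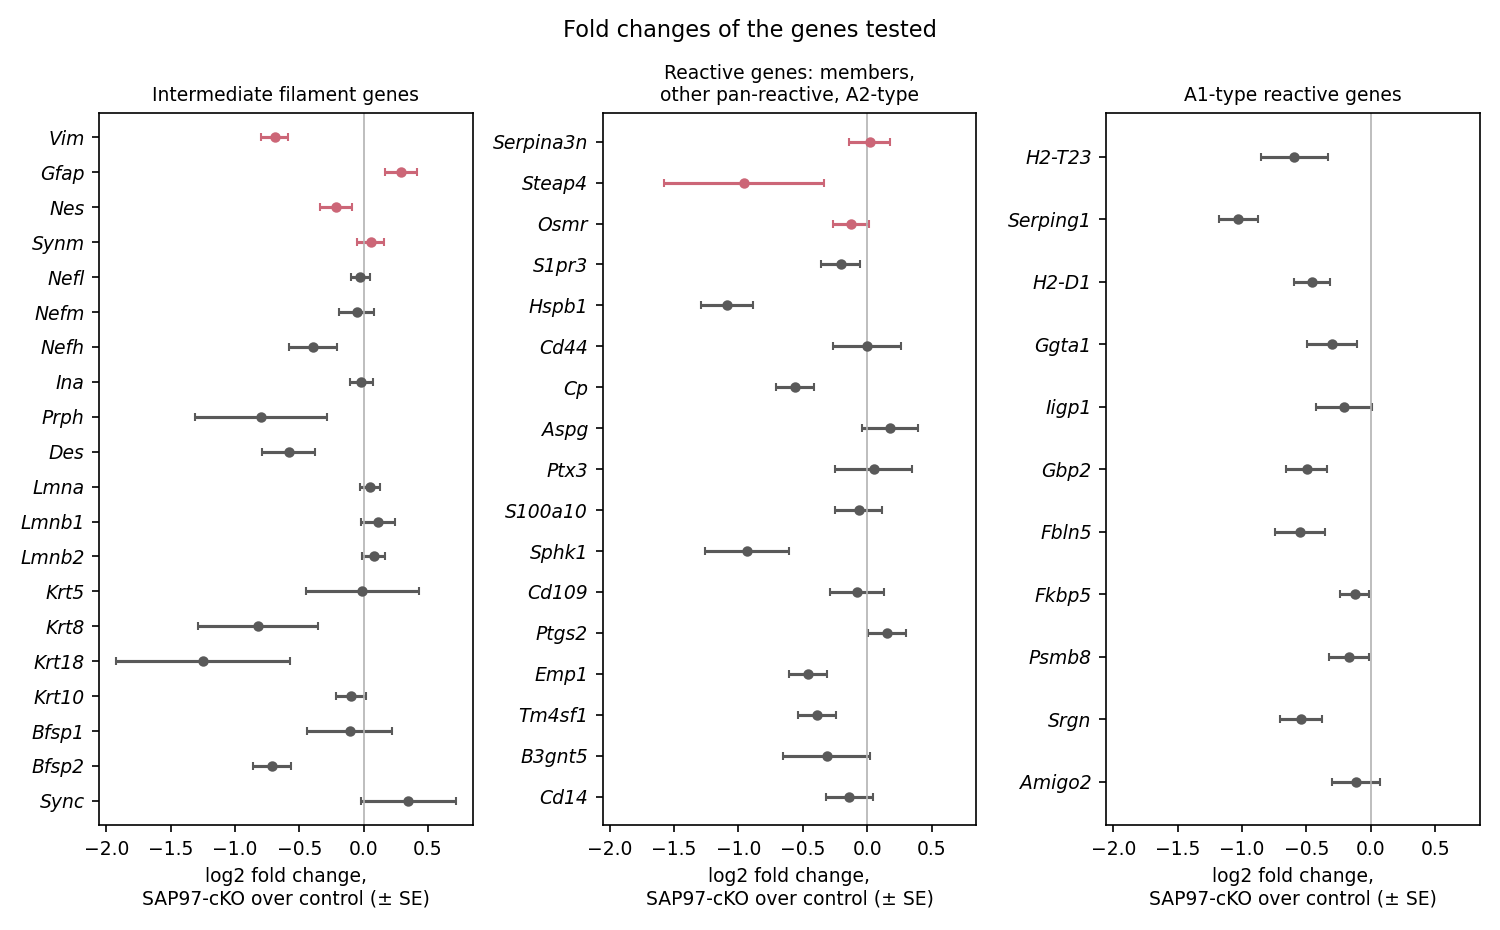
Log2 fold change (SAP97-cKO over control, bars ± SE from edgeR) of each tested gene of the filament and reactive lists, with the members in red and the other genes in grey. Vim lies at -0.69 and Gfap at 0.29 in the filament panel, and all 11 genes of the A1-type panel lie below 0.

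Other genes of the intermediate filament family were looked at beside the members. Of 17 other filament genes, 16 were tested and had a median log2 fold change of -0.07, with 12 below 0 and 4 above. The neuronal filament genes Nefl and Ina had the most counts and were at -0.03 (standard error 0.075) and -0.02 (standard error 0.092). Bfsp2, which encodes a filament protein of the lens, was the 1 gene of this list past the threshold, beside 0.295% of all genes tested. It went from 201 ± 36.2 (SD, n = 4) in controls to 123 ± 6.78 (SD, n = 4) in SAP97-cKO, at -0.71 on the log2 scale (standard error 0.15, adjusted p = 0.2496 in edgeR). All 4 SAP97-cKO libraries were below all controls, and in limma-voom 0 genes of the list passed. Des, the desmin gene of smooth muscle, singled out after its values had been seen, also had groups that did not overlap (82.5 ± 3.30 and 55.1 ± 15.6, SD, n = 4) and did not pass (adjusted p = 0.368 in edgeR). Krt18, Krt8 and Prph, which encode a pair of keratins and peripherin and were also chosen once their values were known, lay further from 0 than Vim but with wide errors and overlapping groups, at -1.25 (standard error 0.67), -0.82 (standard error 0.47) and -0.80 (standard error 0.51) on the log2 scale. The 9 genes of filament linkers and synemin partners, led by Dst and Macf1, had a median of 0.09, with 0 past the threshold or at an unadjusted p under 0.05 in edgeR.

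Among the other reactive genes, 1 of the pan-reactive and 1 of the A1-type genes passed the threshold in edgeR, both of them lower. Of all genes tested 0.295% passed, 46 of them lower and 2 higher, so the direction is that of most calls. Of 7 other pan-reactive genes, 5 were tested, 4 of them below 0 and 1 above, with a median log2 fold change of -0.21 and 1 past the threshold. This was Hspb1, which encodes a small heat shock protein. It had 316, 241, 196 and 199.9 normalized counts in controls 1 to 4 and 123, 122, 125 and 77.9 in SAP97-cKO 1 to 4, without overlap. At -1.09 on the log2 scale (standard error 0.20), it had an adjusted p of 0.195 in edgeR. Cp, the ceruloplasmin gene, and S1pr3, which encodes a sphingosine 1-phosphate receptor, had the most counts, at -0.56 (standard error 0.15, adjusted p = 0.316 in edgeR) and -0.21 (standard error 0.15, adjusted p = 0.592 in edgeR). The groups of Cp did not overlap. Summed over the 7 genes, normalized counts were 1708, 1833, 1529 and 1509 in controls 1 to 4. In SAP97-cKO 1 to 4 they were 1323, 1348, 1271 and 855, without overlap, and Cp held 49.3% of the sum. Of the 9 A2-type genes tested out of 12, led by Ptgs2 and S100a10, 7 were below 0 and 2 above with a median of -0.14. In edgeR 0 passed and 3 (Sphk1, Emp1 and Tm4sf1) had an unadjusted p under 0.05, beside 11.7% of all genes tested.

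All 11 A1-type genes were tested and below 0, with a median log2 fold change of -0.46, beside -0.01 over all genes tested. In edgeR 1 of them passed the threshold, beside 0.295% of all genes tested, and 6 had an unadjusted p under 0.05, beside 11.7%. The 1 that passed was Serping1, which encodes the C1 inhibitor of complement, with 448, 460.4, 369 and 424 normalized counts in controls 1 to 4 and 238, 200.1, 243 and 152 in SAP97-cKO 1 to 4. The groups did not overlap and the log2 fold change, -1.03 with a standard error of 0.15, had an adjusted p of 0.143 in edgeR. Fkbp5, a target of glucocorticoids, and the MHC class I gene H2-D1 had the most counts in the list, at -0.12 (standard error 0.11, adjusted p = 0.655 in edgeR) and -0.46 (standard error 0.14, adjusted p = 0.341 in edgeR). The summed counts of the list were 7473, 7296, 7648 and 6928 in controls and 6590.3, 5085, 6340.04 and 6132 in SAP97-cKO. The meningeal fibroblast sum given above for Vim was lower in the same libraries, and its part in the A1-type values was not tested beyond the covariate fit given below. The calls of Bfsp2, Hspb1 and Serping1, like all others, were lost without control replicate 2, SAP97-cKO replicate 3 or SAP97-cKO replicate 4. They were also lost with the meningeal fibroblast, endothelial or ependymal covariate. The fold changes of these genes in those settings are not reported here, so the losses do not show smaller changes.

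Of the 16 homeostatic astrocyte genes, 7 were below 0 and 9 above, and 1 was past the threshold in edgeR, beside 0.295% of all genes tested. This was Gjb6, which encodes the gap junction protein connexin 30, at 2889.7 ± 347 (SD, n = 4) in controls against 2004 ± 276 (SD, n = 4) in SAP97-cKO, at -0.53 on the log2 scale (standard error 0.11, adjusted p = 0.2496 in edgeR) and without overlap, and its call was lost in the same settings. Aqp4, the gene of the water channel aquaporin 4, was the other gene of the list at an unadjusted p under 0.05 and was singled out after its values had been seen. It went the other way, at 8705 ± 1121 (SD, n = 4) in controls against 11740.5 ± 1289 (SD, n = 4) in SAP97-cKO, without overlap, and did not pass (log2 fold change 0.43, standard error 0.11, adjusted p = 0.316 in edgeR).

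Within groups, the members did not vary as 1 set. The Pearson correlation of the deviations from the group mean was taken over 8 libraries. Within a library, both genes of a pair share its dissection and depth. The correlation was 0.59 between Vim and Gfap, 0.90 between Nes and Steap4, 0.70 between Synm and Steap4 and -0.54 between Gfap and Synm. Over the 21 pairs of tested members it ran from -0.54 to 0.90. With the summed marker counts, Gfap had 0.84 with the homeostatic astrocyte genes, and Vim had 0.69 with these genes, 0.85 with the oligodendrocyte genes and 0.71 with the neural stem cell genes. The other tested members were near or below 0 with the homeostatic astrocyte genes. They had 0.11 (Nes), 0.046 (Serpina3n), -0.14 (Osmr), -0.20 (Steap4) and -0.42 (Synm). A correlation over 8 libraries of whole hippocampus does not show which cells transcribe a gene, so the astrocyte name of the set was not tested by it. With the other pan-reactive genes they had 0.76 (Nes), -0.37 (Serpina3n), 0.44 (Osmr), 0.77 (Steap4) and 0.25 (Synm). With the A1-type genes they had 0.10 (Nes), 0.92 (Serpina3n), 0.15 (Osmr), 0.06 (Steap4) and 0.33 (Synm). Gfap had -0.68 with the meningeal fibroblast and -0.69 with the choroid plexus genes, and Nes had 0.79 with the endothelial and 0.78 with the choroid plexus genes. With the other cell types that transcribe it, Vim had 0.57 (endothelial), 0.55 (ependymal), 0.48 (mural) and 0.08 (meningeal fibroblast). The 10 oligodendrocyte genes, among which Mbp had the most counts, were all below 0 with a median log2 fold change of -0.49. In edgeR 0 were past the threshold and 7 had an unadjusted p under 0.05, beside 11.7% of all genes tested. Their sums were 225659, 335269, 305058 and 360946 in controls 1 to 4 and 316241, 186996, 191244 and 174704 in SAP97-cKO 1 to 4. Control 1 was low and SAP97-cKO 1 high in these sums, so the groups overlapped. Per 1000 counts of this list Vim was at 7.73 ± 0.79 (SD, n = 4) in controls against 6.92 ± 1.24 (SD, n = 4) in SAP97-cKO, and these values overlapped too, as they did per 1000 choroid plexus counts. The part of this list in the Vim values was not tested beyond this ratio.

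Of 12527 genes with a mean of at least 100 normalized counts, those outside the members with the highest within-group correlation to Vim over the 8 libraries were Mif4gd, Metap2, Ncf1, Srek1ip1 and Leng1, at 0.98 to 0.97. Those with the highest correlation to Gfap were Thrsp, Smox, Pars2, Prkrir and Shmt2, at 0.98 to 0.97. As the highest of 12527 correlations over only 8 libraries, such values can also arise between unrelated genes, and no shared regulation is read from them. None of these 10 genes was past the threshold between genotypes, with adjusted p-values of 0.361 to 0.736 in edgeR.

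The remaining marker lists showed where the libraries differed apart from these genes. The 12 microglial genes had a median log2 fold change of 0.02 and 0 past the threshold or at an unadjusted p under 0.05 in edgeR. The 12 hippocampal neuron genes, led by Camk2a and Snap25, had a median of 0.11. In edgeR 0 were past the threshold and 3, all higher (Rbfox3, Slc17a7 and Camk2a), had an unadjusted p under 0.05, beside 11.7% of all genes tested. The 5 erythroid genes, led by Hbb-bs and Hba-a1, had a median of -0.55. In edgeR 0 were past the threshold and 2 (Hba-a2 and Hbb-bt) had an unadjusted p under 0.05, beside the same 11.7%. Of the lists with 0 genes past the threshold in edgeR, all also had 0 in limma-voom. DESeq2, which called 6.36% of all genes tested, called 2 endothelial, 3 mural, 2 ependymal, 4 oligodendrocyte and 1 neural stem cell gene. It also called 3 A2-type, 1 pathway, 2 neuron and 2 erythroid genes, and 0 in the filament linker, member family, choroid plexus and microglial lists. The neutrophil list had 0 genes tested. In the lists with a gene past the threshold in edgeR, DESeq2 called 14 meningeal fibroblast, 5 A1-type, 2 homeostatic astrocyte, 2 other pan-reactive and 2 other filament genes.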

How the data were processed

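RNA was extracted from whole hippocampus and made into TruSeq libraries, per the labels. The authors aligned the reads with STAR 2.5.3a to mm10 (GRCm38.p5), per the submitters' processing notes, and, per the study's methods, their PORT pipeline removed ribosomal and mitochondrial reads, brought all libraries to the same depth by resampling, and counted reads on Ensembl genes. The deposited count of a gene in a library is a whole number of reads. Columns with the authors' own comparison (a log2 fold change with its p-value and q-value) are in the deposited table and were not used.

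From these counts, genes were kept with filterByExpr of edgeR 4.0.16 in R 4.3.3 (at least 10 counts by genotype and 15 in total), so that 16251 genes were tested and 9583 were not. After TMM scaling, genotypes were compared by the quasi-likelihood test of edgeR at the study's threshold, a Benjamini-Hochberg FDR under 0.25 over the genes tested. The standard error is the log2 fold change divided by the square root of F. The biological coefficient of variation was 0.152. No library repeated another (chi-square per gene between libraries, 9.62 to 72.0). The test was tried on simulated data. Coordinates and exon lengths are from GENCODE M21 (GRCm38). Correlations used log2 CPM with a prior count of 2. Plots were drawn with matplotlib 3.10.9.

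The members and the gene lists were chosen with earlier results of these data known. The lists are the members, other filament genes, filament linkers, pan-reactive, A1-type, A2-type, gp130-STAT3 pathway and member family genes, and markers of homeostatic astrocytes, neural stem cells, meningeal fibroblasts, endothelium, mural cells, ependyma, choroid plexus epithelium, microglia, neutrophils, oligodendrocytes, hippocampal neurons and erythroid cells. The genes named are Dlg1, the members, the genes past the threshold (at most 6) and the 2 most abundant of a list (some of these are not reported here), and the 5 genes most like Vim and Gfap; list genes named for an unadjusted p under 0.05 were chosen after their values were seen. Alternatives were limma-voom (limma 3.58.1), DESeq2 1.42.0, no scaling, DESeq2 size factors, a replicate block, no filter or 10 counts required in every library, a covariate of the meningeal fibroblast or homeostatic astrocyte markers, an FDR of 0.05, and each library left out. Covariates for endothelial, choroid plexus and ependymal markers, and ratios of members other than Vim to astrocyte genes, were added after seeing the data.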

Additional observations from a re-analysis of the deposited data

How the results depend on the processing

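The log2 fold change of Vim was below 0 in all 21 alternatives, at -0.77 to -0.63 with 1 library left out and -0.74 to -0.56 in the others. edgeR called 48 genes and 1 member. The number of genes called was 1033 with DESeq2 (588 lower, 445 higher), 95 without scaling, 104 without the filter, 288 with the astrocyte covariate and 16 with the choroid plexus covariate. It was 0 with the meningeal fibroblast, endothelial and ependymal covariates (732, 987 and 741 genes at an unadjusted p under 0.05 in edgeR) and at an FDR under 0.05 (1907 genes at an unadjusted p under 0.05), and 0 to 1675 with 1 library left out. The number of members called was 0 with those 3 covariates and at an FDR under 0.05, 2 with the astrocyte covariate, and 0 to 1 with 1 library left out. The replicate block gave 256 genes. Same-numbered libraries correlated at -0.06 to 0.26 and 5 of 8 libraries correlated best with their own number. These values do not settle whether the numbers pair the mice or mark a batch. The labels do not say so, and the main test used no pairing.

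Signs turned for 4 members that were not past the threshold. Gfap was at -0.088 with the meningeal fibroblast covariate. Steap4 was at 0.90 with the meningeal fibroblast and 0.041 with the choroid plexus covariate. Serpina3n, at 0.02, was at -0.0026 in limma-voom, -0.029 without scaling, -0.0013 with the replicate block, -0.55, -0.046 and -0.10 with the meningeal fibroblast, choroid plexus and ependymal covariates, -0.017 relative to astrocyte genes, and -0.054 to 0.17 with 1 library left out. Synm was at -0.049 to 0.12 with 1 library left out. The cause was not tested. Nes and Osmr were below 0 in all 21 alternatives each, but their size moved. Nes, at -0.22, was at -0.29 to -0.13 with 1 library left out and at -0.0074 with the meningeal fibroblast covariate. Osmr, at -0.13, was at -0.19 to -0.020 with 1 library left out, nearest 0 without control 1, and at -0.023 with the endothelial covariate. Steap4 was not tested where 10 counts were required in every library. Lcn2 was tested only without the filter, where its log2 fold change was -2.21 (adjusted p = 0.501 in edgeR). With 25 reads in all, depth limits Lcn2.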
